A study of Homo sapiens with 4 samples.

Results

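Tubulin isotypes are the alpha- and beta-tubulin genes whose products pair into the dimer that builds microtubules. The 10 members were taken by symbol: the alpha-tubulins TUBA1A, TUBA1B and TUBA1C, and the beta-tubulins TUBB, TUBB2A, TUBB2B, TUBB3, TUBB4A, TUBB4B and TUBB6. All 10 were listed among the 16292 transcripts, each through 1 transcript. A gene was tested where its RPKM averaged 5 or more, which left 9612 genes and 9 of the 10 members, without TUBB3. RPKM is reads divided by the length of the coding sequence and by the read total of the library, as made by the authors. It puts genes of unlike length on 1 scale, but between members the comparison is limited by reads that match several genes.

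Ribosome-protected fragments were sequenced from HEK293, an established human embryonic kidney cell line. The 4 groups were RPL4 mutant cells with erythromycin, RPL4 mutant cells without it, wild type cells with erythromycin and wild type cells without it, with 1 library each. RPL4 is a large-subunit ribosomal protein that lines the tunnel through which the nascent chain leaves, and erythromycin is a macrolide that binds this tunnel in bacterial ribosomes. The protocol describes stable lines with GFP, L4 wild type or a Δloop form, infected with short hairpin RNA against RPL4 or a scramble, and cells held with cycloheximide or lactimidomycin. Which of these each library had is not given by the labels, nor are the erythromycin dose and the number of clones.

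Library totals were 993461 reads in the mutant with erythromycin, 604506 in the mutant without it, 2555613 in wild type with it and 2965243 in wild type without it. RPL4 itself was at 1439 and 1707 RPKM in the mutant with and without the drug, against 2586 and 2515 in wild type. A transgene copy would be read as RPL4, and other abundant genes were lower in the mutant too. VIM, for one, was at 637 and 744 RPKM in the mutant with and without the drug, against 1100 and 964 in wild type. The RPL4 level alone therefore cannot check the genotype labels. Of the HEK293 markers, VIM led in each library, and the 6 genes summed to 1126 and 1334 RPKM in the mutant with and without the drug, against 1889 and 1653 RPKM in wild type. Most of each sum came from VIM, KRT8 and KRT18. PAX2 was at 1.61 to 2.69 RPKM over the libraries, and NEFM was at 0 in the mutant without the drug. Of 6 markers of other cell types, PTPRC was not listed in any library and ALB was at most at 0.184 RPKM. The list summed to 81.9 and 233 RPKM in the mutant with and without the drug, against 12.3 and 13.6 RPKM in wild type. GFAP, the astrocyte filament gene, gave 77.2 and 222 RPKM of this in the mutant with and without the drug, and its part in the results was not tested.

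Cells set their tubulin level at the ribosome. When free dimer is in excess, the protein TTC5 binds the first residues of a nascent alpha- or beta-tubulin as they leave the exit tunnel, and with SCAPER it recruits the CCR4-NOT deadenylase, which shortens the tail of that message. The recognised residues are methionine, arginine and glutamate, followed by cysteine in alpha- or isoleucine in beta-tubulin. After translation, prefoldin and the chaperonin fold the chains, and the cofactors TBCA to TBCE with ARL2 join them into dimers.

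The first 30 coding bases of each deposited transcript are shown because the recognised residues are encoded there, in all but TUBA1C. They were read 5′ to 3′ on the coding strand from the GENCODE 29 transcripts (GRCh38), and capitals mark the start codon and the 3 codons after it.
TUBA1A: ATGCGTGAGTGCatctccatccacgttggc
TUBA1B: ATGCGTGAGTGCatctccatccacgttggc
TUBA1C: ATGACAGCCTGGttcaatggggtggaggag
TUBB: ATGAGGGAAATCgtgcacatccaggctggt
TUBB2A: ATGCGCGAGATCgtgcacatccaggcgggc
TUBB2B: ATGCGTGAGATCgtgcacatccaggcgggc
TUBB3: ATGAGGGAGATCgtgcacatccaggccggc
TUBB4A: ATGCGGGAGATCgtgcacctgcaggccggc
TUBB4B: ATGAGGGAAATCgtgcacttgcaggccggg
TUBB6: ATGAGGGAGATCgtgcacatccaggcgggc
TUBA1A and TUBA1B were identical over the 30 bases. Against TUBB, the beta-tubulins differed at 0 (TUBB4B) to 3 (TUBB2A, TUBB2B) of the 12 marked bases. The TUBA1C transcript in the files begins elsewhere, with 6 of 12 marked bases differing from TUBA1B. Its coding sequence runs to 1560 bases, against 1335 to 1356 for the others, and reaches the alpha-tubulin stretch at base 211, where 1 of 30 bases differs from the start of TUBA1B. The capitals there mark the 4 codons that line up with the TUBA1B start, and the first is AAG, which is no start codon.
TUBA1C from base 211: AAGCGTGAGTGCatctccatccacgttggc

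The last 60 coding bases encode the tail in which isotypes differ most, and are shown for a pair of beta-tubulins that is nearly alike there and a pair that is less alike. Capitals mark the stop codon.
TUBB2A tail: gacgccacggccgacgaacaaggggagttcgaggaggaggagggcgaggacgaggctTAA
TUBB2B tail: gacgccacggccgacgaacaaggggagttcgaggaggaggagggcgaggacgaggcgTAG
TUBB4B tail: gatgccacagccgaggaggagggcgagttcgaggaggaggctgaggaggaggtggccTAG
TUBB tail: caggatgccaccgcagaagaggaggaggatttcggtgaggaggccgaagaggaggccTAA
The tails of TUBB2A and TUBB2B differed at 2 bases. TUBB4B differed from TUBB at 27 of the 60 bases, counted back from the stop codon with no gap. Their shared stretches lie a codon out of step, so this count overstates how unlike the tails are.

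How far footprints can be assigned to a member was measured over all windows of 28 bases, about the length of a footprint. A window was unique when no other gene of GENCODE 29, pseudogenes included, held the same letters. TUBB6 had 87.1% unique windows, TUBB4B 72.0%, TUBB4A 65.9%, TUBB 39.1% and TUBA1C 34.8%. TUBA1A (24.5%), TUBB2B (18.2%), TUBB2A (15.3%), TUBA1B (11.96%) and TUBB3 (2.41%) had few. TUBB shared only 1.76% of its windows with other members, and 50.5% with the pseudogene TUBBP1. TUBA1B shared 62.5% with TUBA1A and 62.3% with TUBA1C, TUBB2A shared 77.0% with TUBB2B, and TUBB3 shared 95.9% with the overlapping gene AC092143.1. The coding sequences of TUBB2A and TUBB2B were 98.1% identical, those of TUBA1A and TUBA1B 97.2% and those of TUBA1B and TUBA1C 97.0%. How reads that match several genes were counted is not given in the sources used here, so levels of TUBB, TUBA1A, TUBA1B, TUBA1C, TUBB2A, TUBB2B and TUBB3 are uncertain.

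**Figure D1:**
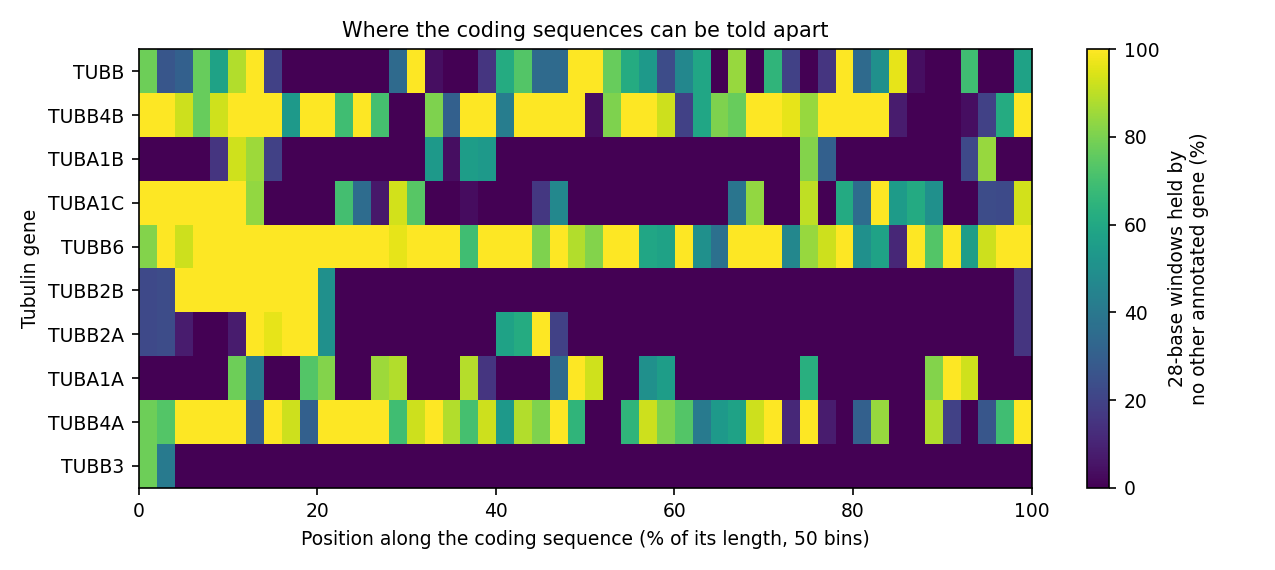
Share of 28-base windows (colour, %) that no other annotated gene holds, in 50 bins along the coding sequence (x axis, % of its length) of each tubulin gene, ordered by mean level. TUBB6 and TUBB4B were unique over most of their length, while TUBB3, TUBA1B, TUBB2A and TUBB2B were unique in short stretches.

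The genes lie on several chromosomes (GRCh38, gene bounds from GENCODE 29). TUBA1B (chromosome 12, 49127782 to 49131397, minus strand), TUBA1A (chromosome 12, 49184796 to 49189324, minus strand) and TUBA1C (chromosome 12, 49188736 to 49274603, plus strand) are neighbours. TUBA1A and TUBA1C overlap on opposite strands, and the files hold no strand. TUBB2A (3153669 to 3157526) and TUBB2B (3224261 to 3231730) are minus-strand neighbours on chromosome 6, where TUBB also lies (30720201 to 30725426, plus strand). TUBB4B is on chromosome 9 (137241213 to 137243707, plus strand), TUBB3 on chromosome 16 (89921392 to 89938761, plus strand), TUBB6 on chromosome 18 (12307669 to 12344320, plus strand) and TUBB4A on chromosome 19 (6494319 to 6502848, minus strand). Each of the 10 transcripts has 4 coding exons.

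By RPKM, TUBB had the highest level of the 10 genes in each library, followed by TUBB4B and TUBA1B. TUBB, the beta-tubulin of nearly all cell types, was at 1358 RPKM in the mutant with erythromycin, 1846 in the mutant without it, 2261 in wild type with it and 2578 in wild type without it. TUBB4B, the other widely made beta-tubulin and a part of ciliary microtubules, was at 667, 997, 1030.0 and 1148 RPKM in the same order. TUBA1B, the main alpha-tubulin of dividing cells, was at 373, 433, 560.1 and 667 RPKM. For these 3 genes both mutant libraries were below both wild type libraries, and each library with the drug was below its partner without it.

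TUBA1C, an alpha-tubulin of many tissues, was at 87.1, 121, 151 and 158 RPKM, again with the mutant below wild type. TUBB6, the most divergent of the widely expressed beta-tubulins, was at 125 RPKM in the mutant with erythromycin, 142 in the mutant without it, 102 in wild type with it and 127 in wild type without it. Unlike TUBA1C, it was not lower in the mutant in either treatment.

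The remaining members are known from neurons and glia and were low. TUBB2B was at 39.1 RPKM in the mutant with erythromycin, 45.7 in the mutant without it, 51.2 in wild type with it and 67.5 in wild type without it. In the same order TUBB2A was at 32.3, 34.6, 44.2 and 40.6 RPKM, and TUBA1A, the alpha-tubulin of developing neurons, was at 25.2, 24.4, 29.1 and 36.6. All 3 were lower in the mutant than in wild type in both treatments, though not always by more than counting error. TUBB4A, the beta-tubulin of myelinating glia, was at 17.3 and 31.0 RPKM in the mutant with and without erythromycin, against 13.2 and 30.3 in wild type, so its libraries split by drug. TUBB3, the neuronal beta-tubulin, had 8 reads in the mutant with erythromycin, 2 in the mutant without it, 13 in wild type with it and 8 in wild type without it, or 1.99 to 5.95 RPKM. The counting intervals of its 4 levels overlapped.

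In wild type without the drug the order by RPKM was TUBB, TUBB4B, TUBA1B, TUBA1C, TUBB6, TUBB2B, TUBB2A, TUBA1A, TUBB4A and TUBB3. The 95% counting intervals of the neighbours TUBB2A and TUBA1A overlapped (34.6 to 47.4 and 30.9 to 43.0 RPKM), as did those of TUBA1A and TUBB4A (25.1 to 36.2 for TUBB4A). In the mutant TUBB6 stood above TUBA1C by RPKM in both treatments. With the drug their intervals were 107 to 146 RPKM for TUBB6 and 73.0 to 103 for TUBA1C. Without it they overlapped, at 117 to 170 RPKM for TUBB6 and 99.7 to 145 for TUBA1C. The intervals cover counting error only, since reads without molecular identifiers are not independent molecules and no group had a replicate. Order between members also depends on how shared reads were counted. With reads divided by unique windows, TUBA1B (5689) stood above TUBB4B (1627) in wild type without the drug. In that unit TUBA1C (254 with and 353 without the drug) stood above TUBB6 (147 and 166) in the mutant.

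**Figure D2:**
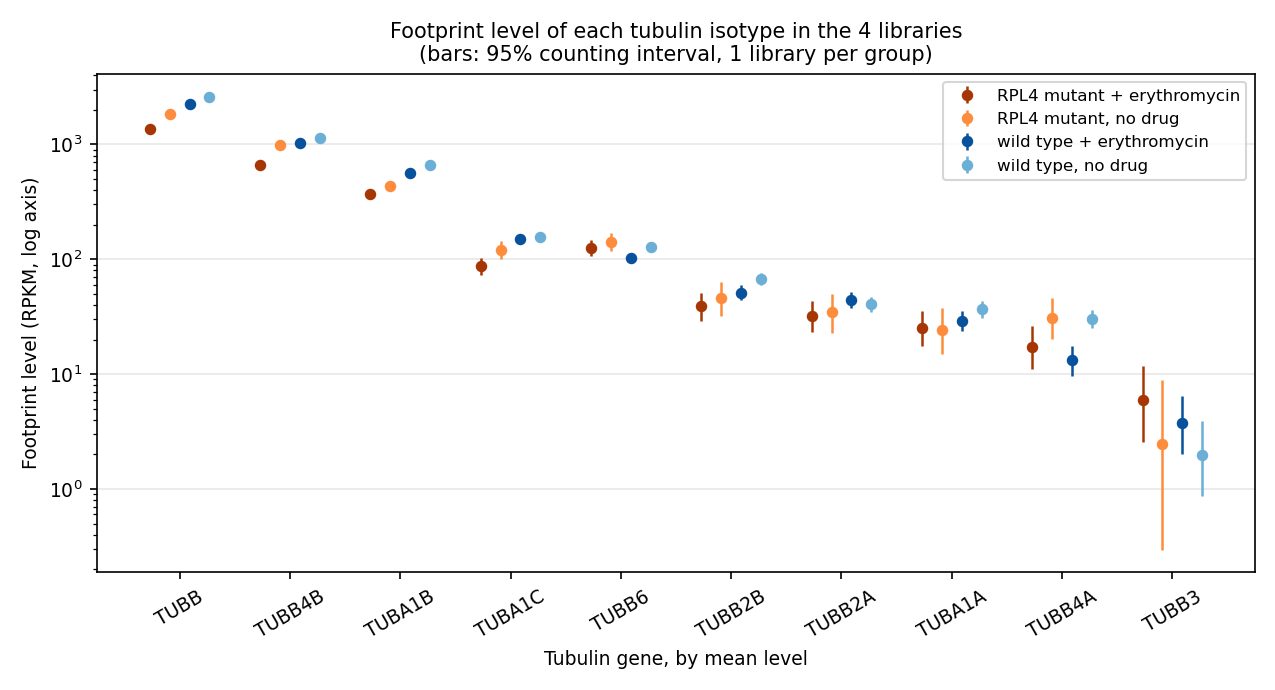
Footprint level (y axis, RPKM, log scale) of the 10 tubulin genes (x axis) in the 4 libraries; points are single libraries and bars are 95% Poisson counting intervals. TUBB lay between 1358 and 2578 RPKM and TUBB3 between 1.99 and 5.95 RPKM.

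TUBB held a similar share of the tubulin footprints in the 4 libraries, and TUBB6 a larger one in the mutant. TUBB made up 49.7% of the summed tubulin RPKM in the mutant with erythromycin, 50.2% in the mutant without it, 53.3% in wild type with it and 53.1% in wild type without it. TUBB6 held 4.59% with and 3.86% without the drug in the mutant, and 2.41% with and 2.61% without it in wild type. Summed beta- over summed alpha-tubulin RPKM was 4.62 (95% counting interval 4.25 to 5.02) and 5.36 (4.86 to 5.90) in the mutant with and without the drug, and 4.74 (4.54 to 4.94) and 4.64 (4.47 to 4.81) in wild type. The 4 intervals overlapped except for the mutant and wild type without the drug. Dividing reads by unique windows in place of coding length, a unit chosen after the data were seen, gave ratios of 1.51, 1.70, 1.54 and 1.47 in the same order. In that unit TUBA1B (5689 reads on the same scale as RPKM, per unique window) stood next to TUBB (6734) in wild type without the drug, and TUBB4B was at 1627. The beta over alpha ratio thus depends on how shared reads were counted. Comparisons of 1 gene between libraries use the same length, but shared reads may still carry the change of a partner gene. How far they do was not tested.

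**Figure D3:**
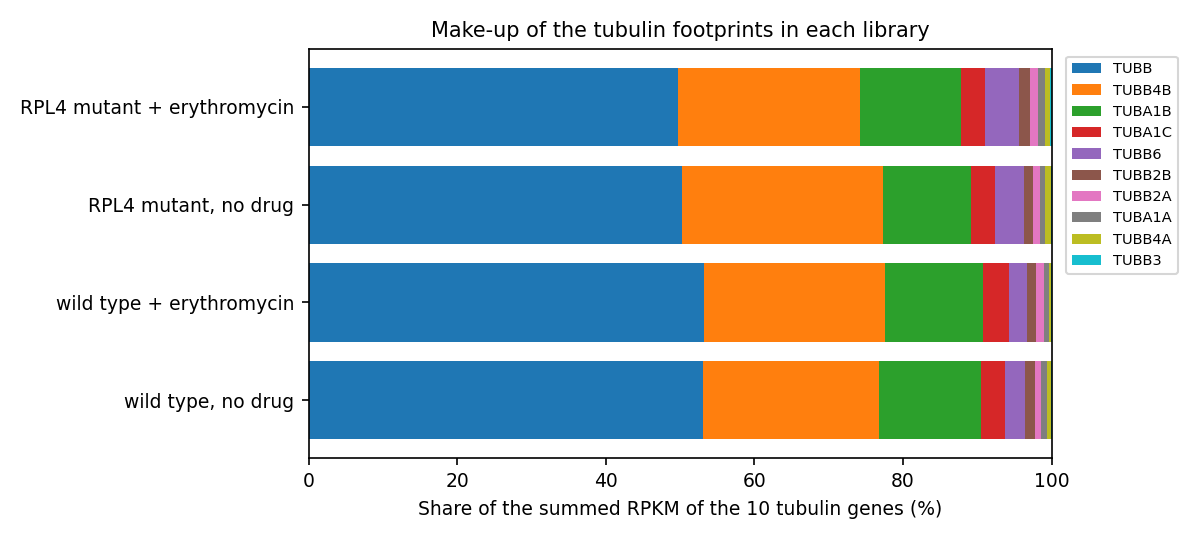
Share of the summed RPKM of the 10 tubulin genes (x axis, %) held by each gene (colour) in the 4 libraries (rows). TUBB and TUBB4B made up most of each bar, and the TUBB6 segment was wider in both mutant libraries.

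Erythromycin was examined first in RPL4 mutant cells, to ask how tubulin footprints differ with the drug when the ribosome is altered. Summed over the 10 genes, tubulin was at 2730.3 RPKM with and 3677 RPKM without the drug. The log2 ratio, centred on the median of the 9612 genes, was −0.48 (95% counting interval −0.55 to −0.41). It was −0.52 (−0.59 to −0.44) for the beta-tubulins and −0.30 (−0.47 to −0.14) for the alpha-tubulins. Fewer ribosomes on each message, fewer messages and fewer cells that make them cannot be told apart in these libraries. Each group being 1 library, a single comparison has no replicate check and no p.

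All 9 tested members were below 0 in the mutant, 5 of 9 with counting intervals below it, against 7.71% of all genes tested. Intervals narrow with depth. Of the genes averaging 100 RPKM or more, 16.8% had intervals below 0, and 4 of the 5 such members did. None of the 9 had an interval above 0, against 7.23% of all genes. TUBB was at −0.50 (−0.60 to −0.40), TUBB4B at −0.63 (−0.77 to −0.49), TUBA1C at −0.52 (−0.90 to −0.15) and TUBA1B at −0.27 (−0.47 to −0.07). TUBB4A, with 23 reads with and 25 without the drug, was at −0.85 (−1.77 to −0.01). Centred on genes of at least 100 RPKM, 4 of the 9 had intervals below 0, without TUBB4A. The share was 6.09% of all genes and 12.9% of those of at least 100 RPKM. Against TUBB, the ratio of TUBA1B lay higher by 0.23 (0.01 to 0.45). The median of the 9 was −0.27, against 0 for all genes, and 0 of the 9 were at least 2-fold lower, where 3.39% of all genes were.

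In wild type cells, summed tubulin was at 4246 RPKM with and 4854 RPKM without erythromycin, a centred log2 ratio of −0.18 (−0.21 to −0.15). Here 6 of the 9 members had intervals below 0, against 13.9% of all genes tested, and 0 had intervals above 0, against 14.2%. At 100 RPKM or more 21.3% of genes had intervals below 0, and 4 of the 5 members did. TUBB was at −0.17 (−0.22 to −0.13), TUBB4B at −0.14 (−0.20 to −0.08), TUBA1B at −0.24 (−0.32 to −0.15), TUBB6 at −0.29 (−0.49 to −0.09) and TUBB2B at −0.38 (−0.67 to −0.11). TUBB4A was lowest at −1.13 (−1.71 to −0.68), with 45 reads with and 120 without the drug. It was the only tested member at least 2-fold lower, where 1.54% of all genes were. The median of the 9 members was −0.24.

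In wild type TUBB4A was also lower relative to TUBB, by a log2 difference of −1.01 (−1.51 to −0.52), and no other member differed from TUBB beyond counting error there. A total of 36 such differences were computed over members and comparisons, of which 7 had intervals off 0, and the intervals are not adjusted for that number.

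The mutant response was lower than the wild type response for part of the family. The difference of the summed log2 ratios was −0.30 (−0.38 to −0.23). It was −0.35 (−0.43 to −0.26) for the beta-tubulins and −0.10 (−0.28 to 0.08) for the alpha-tubulins. TUBB (−0.32, −0.43 to −0.21), TUBB4B (−0.49, −0.64 to −0.34) and TUBA1C (−0.47, −0.87 to −0.09) were the 3 of 9 members with intervals below 0, against 10.7% of all genes and 23% of those of at least 100 RPKM. None had an interval above 0, against 8.74% of all genes. TUBA1B was at −0.03 (−0.24 to 0.18), and the median of the 9 was −0.03.

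Over both genotypes, limma's additive model on log2(RPKM + 1) with Benjamini-Hochberg adjustment passed 0 of the 9 members for erythromycin at 0.05, where 0.125% of all genes passed. The model has 1 residual degree of freedom and is exploratory. At an unadjusted p under 0.05 there were 3 members, TUBB, TUBB4A and TUBB4B, against 5.62% of all genes. TUBB4A was at −0.99 (SE 0.281, limma adjusted p = 0.521) and TUBB at −0.34 (SE 0.147, limma adjusted p = 0.871), both lower with the drug in 2 of 2 genotypes.

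**Figure D4:**
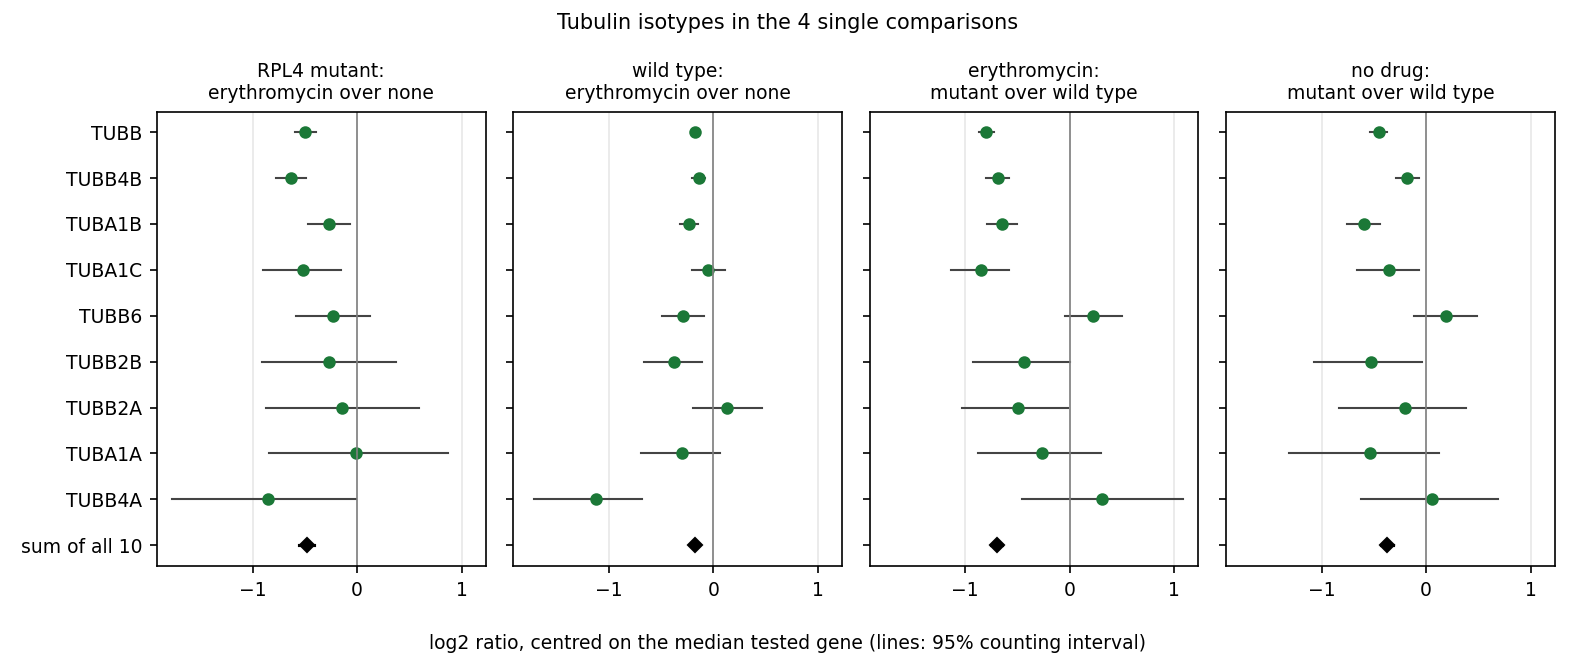
Centred log2 ratio (x axis) of the 9 tested tubulin genes (rows, by mean level) and of the sum of all 10 (diamonds) in the 4 single comparisons; lines are 95% counting intervals. TUBB4A lay farthest left in wild type with erythromycin at −1.13, and TUBB6 and TUBB4A were the genes right of 0 in both panels of mutant over wild type.

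Mutant cells were set against wild type cells to ask how tubulin footprints differ with altered RPL4. With erythromycin, summed tubulin was at 2730.3 RPKM in the mutant and 4246 RPKM in wild type, a centred log2 ratio of −0.70 (−0.75 to −0.65). Without it, the sums were 3677 RPKM in the mutant and 4854 RPKM in wild type, at −0.38 (−0.43 to −0.32). Genes of at least 100 RPKM as a class were lower in the mutant, with medians of −0.19 with and −0.13 without the drug. Centred on those 1721 genes, the tubulin ratios were −0.51 with and −0.24 without the drug.

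With the drug, TUBB was at −0.80 (−0.87 to −0.72), TUBA1C at −0.85 (−1.14 to −0.58), TUBB4B at −0.69 (−0.80 to −0.58), TUBA1B at −0.65 (−0.79 to −0.51) and TUBB2A at −0.50 (−1.04 to −0.01). These were the 5 of 9 with intervals below 0, against 16.9% of all genes and 43.9% of those of at least 100 RPKM. None had an interval above 0, against 16.1% of all genes. Centred on genes of at least 100 RPKM, 4 of the 9 had intervals below 0, without TUBB2A. The share was 9.57% of all genes and 27.3% of those of at least 100 RPKM. The median of the 9 was −0.50.

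Without the drug, 5 of 9 members had intervals below 0, against 9.28% of all genes and 28.3% of those of at least 100 RPKM, and 4 of the 5 members at that level did. None of the 9 had an interval above 0, against 9.53% of all genes. TUBA1B was at −0.60 (−0.76 to −0.44), TUBB at −0.46 (−0.54 to −0.38), TUBA1C at −0.36 (−0.66 to −0.07), TUBB2B at −0.53 (−1.07 to −0.04) and TUBB4B at −0.18 (−0.29 to −0.07). Centred on genes of at least 100 RPKM, 2 of the 9 (TUBA1B and TUBB) kept intervals below 0, against 4.79% of all genes. The share was 14.4% among genes of at least 100 RPKM, the level of both. TUBB4B moved to −0.04 (−0.15 to 0.06). The ratio of TUBB4B lay above that of TUBB by a log2 difference of 0.28 (0.14 to 0.41). The median of the 9 was −0.36. No tested member was 2-fold lower or higher in the mutant in either treatment. Over all genes 2.26% with and 3.32% without the drug were 2-fold lower, and 7.02% with and 5.29% without it were 2-fold higher. The 4 single comparisons share libraries, so they are not independent of each other.

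TUBB6 stood apart from the abundant members. In the mutant over wild type it was at 0.23 (−0.05 to 0.50) with and 0.19 (−0.12 to 0.48) without erythromycin. Centred on genes of at least 100 RPKM it was at 0.41 (0.14 to 0.68) with and 0.32 (0.02 to 0.62) without the drug. It was then the 1 member of 9 with an interval above 0 in each, against 24.6% of all genes with and 14.8% without the drug. Against TUBB the log2 difference was 1.03 (0.75 to 1.30) with and 0.64 (0.34 to 0.95) without the drug. TUBB4A also lay above TUBB in the mutant with the drug, by 1.13 (0.40 to 1.86), from 23 reads in the mutant and 45 in wild type. TUBB3 did so by 1.40 (0.13 to 2.67), from 8 reads in the mutant and 13 in wild type.

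Over both treatments, limma's additive model with Benjamini-Hochberg adjustment passed 0 of the 9 members for the mutant, where 1.28% of all genes passed with 0.0832% lower and 1.2% higher. At an unadjusted p under 0.05 there were 4 members, TUBA1B, TUBA1C, TUBB and TUBB4B, against 11.8% of all genes. TUBB came nearest, at −0.62 (SE 0.147, limma adjusted p = 0.0841), lower in 2 of 2 treatments. It passed under 5 of the 12 alternative settings, with limma adjusted p from 0.0188 to 0.594 over all of them. TUBA1B was at −0.61 (SE 0.18, limma adjusted p = 0.17) and TUBB4B at −0.43 (SE 0.176, limma adjusted p = 0.373). TUBB6 was at 0.21 (SE 0.225, limma adjusted p = 0.741).

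The genes that control tubulin messages had medians close to that of all genes. Of the 12 genes of tubulin autoregulation, 11 were tested and 0 passed limma in either model. With erythromycin 5 of the 11 were below 0 in the mutant, with a median of 0.08, and 2 of 11 in wild type, with a median of 0.12. In the mutant over wild type the medians were −0.05 with and 0.15 without the drug. With the drug 2 of the 11 had intervals above 0 there, against 16.1% of all genes. These were TTC5 at 0.72 (0.07 to 1.43) and CNOT6 at 0.55 (0.15 to 0.97). TTC5, the receptor of nascent tubulin, was at 25.1 and 13.8 RPKM in the mutant with and without erythromycin, against 14.2 and 21.9 in wild type. Its mean lay below the 20 RPKM used for naming list genes, and it is given for its role. Its log2 ratio with the drug was 0.77 (−0.20 to 1.95) in the mutant and −0.58 (−1.15 to −0.09) in wild type. The difference between these responses was 1.35 (0.29 to 2.47), from 33 and 11 reads in the mutant with and without the drug. TTC5 was the only 1 of the 11 with an interval above 0 for this difference. That is near the share of all genes, 8.74%. CNOT11, the subunit that SCAPER contacts, was at −0.16 (−0.70 to 0.38) in the mutant and 0.12 (−0.14 to 0.38) in wild type, and SCAPER was too low to be tested, at 2.01 to 3.59 RPKM.

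The chaperonin, the ring of 8 subunits that folds tubulin and actin, was mostly lower with erythromycin in the mutant and higher with it in wild type. In the mutant 7 of 8 subunits were below 0 with the drug, 4 with intervals below it, against 7.71% of all genes and 16.8% of those of at least 100 RPKM, and the median was −0.22. In wild type 0 of the 8 were below 0 and 6 had intervals above it, against 14.2% of all genes, with a median of 0.15. Centred on genes of at least 100 RPKM, 6 of the 8 had intervals above 0 in wild type, against 24.3% of those genes. CCT4 was at 291 and 385 RPKM in the mutant with and without the drug, against 548 and 458 in wild type, giving −0.46 (−0.66 to −0.26) in the mutant and 0.27 (0.19 to 0.36) in wild type. In the mutant over wild type all 8 had intervals below 0 in both treatments, with medians of −0.77 with and −0.33 without the drug. The share was 43.9% with and 28.3% without the drug among genes of at least 100 RPKM, a level that all 8 exceeded. Centred on those genes, 8 of the 8 with and 6 of the 8 without the drug had intervals below 0. Under that centring the share among those genes was 27.3% with and 14.4% without the drug. Limma passed 0 of the 8 in either model. The 4 tested HEK293 markers had medians with the drug of −0.25 in the mutant and 0.18 in wild type, and in the mutant over wild type of −0.76 with and −0.33 without the drug. Their part in the tubulin and chaperonin results was not tested.

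The 6 folding cofactors had medians with erythromycin of 0.07 in the mutant and 0.04 in wild type, and in the mutant over wild type of −0.29 with and −0.22 without the drug. TBCA, which holds free beta-tubulin, was at 872 and 685 RPKM in the mutant with and without the drug, against 906 and 829 in wild type. TBCC, which acts at the release of the dimer, was at −0.94 (−1.75 to −0.26) in the mutant without the drug, from 18 reads against 175 in wild type. The 6 prefoldin subunits, which hand tubulin to the chaperonin, had medians between −0.16 and 0.01 over the 4 comparisons. Of both lists limma passed 0 genes.

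**Figure D5:**
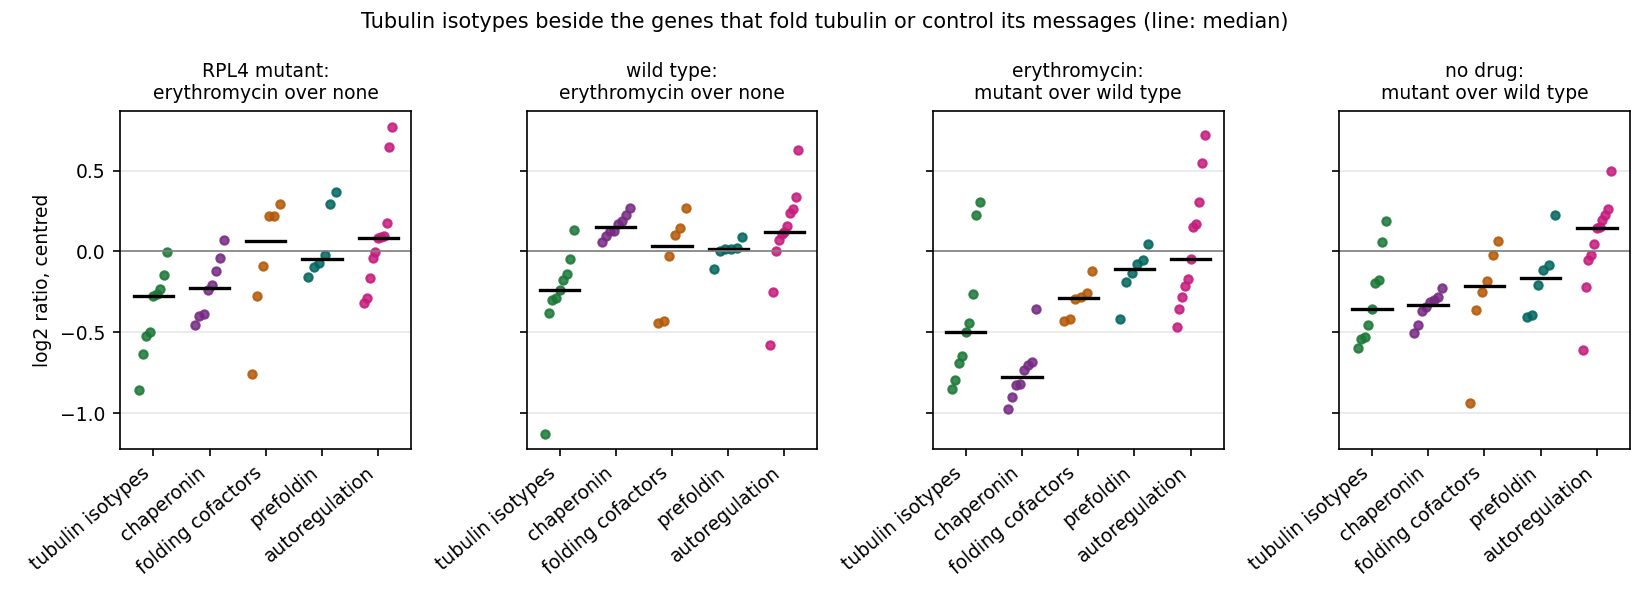
Centred log2 ratio (y axis) of each tested gene (points) of the tubulin isotypes and of 4 lists around them, with the median as a line, in the 4 single comparisons. With erythromycin the tubulin median was −0.27 in the mutant and −0.24 in wild type, and the chaperonin median was −0.22 in the mutant and 0.15 in wild type.

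Of 12 other tubulin genes, 9 had footprints and 4 were tested, with 1 of the 4 below 0 in the mutant and 2 of the 4 in wild type with erythromycin. Limma passed 0 of the 4 in either model. TUBG1, the gamma-tubulin that nucleates microtubules, was at 117 and 111 RPKM in the mutant with and without the drug, against 104 and 133 in wild type. Its ratio with erythromycin was 0.02 (−0.36 to 0.41) in the mutant and −0.34 (−0.54 to −0.15) in wild type. Among 18 proteins that bind microtubules or modify tubulin tails, 14 were tested and 0 passed limma in either model. STMN1, which binds free dimer, was at 1072 and 1194 RPKM in the mutant with and without the drug, against 1383 and 1437 in wild type. MAPRE1, which tracks growing plus ends, and CKAP5, a tubulin polymerase, were lower with erythromycin in the mutant, at −0.61 (−0.96 to −0.25) and −0.59 (−0.95 to −0.27). In wild type they were higher with it, at 0.35 (0.17 to 0.53) and 0.30 (0.13 to 0.50).

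The genes whose profile over the 4 libraries lay nearest to that of TUBB, by Euclidean distance of centred log2 values among 3037 genes of at least 50 RPKM, were PEG10 (0.0570), YTHDF2 (0.0685), TKT (0.101), LANCL1 (0.114) and API5 (0.122). Among the members, TUBA1C was nearest at 0.0938, with 2 of the 3037 genes nearer, then TUBA1B at 0.168 with 17 nearer, and TUBB4B at 0.217 with 47 nearer. TUBB6 (0.858, 2179 nearer) and TUBB4A (1.08, 2648 nearer) were far. With 4 libraries this is a description of these profiles only.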

How the data were processed

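Ribosome footprints of 4 libraries, 1 per group, were analysed. The deposited values are RPKM per transcript, made by the authors. Per the submitters' processing notes, cutadapt, STAR and GRCh38 were used, with no roles or versions. The sources used here do not name the read counter or annotation release. Transcripts a file does not list were set to 0. Of 16292 transcripts, 16172 were matched to GENCODE 29.

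RPKM times coding length (stop codon included) times the library total gave whole reads, within 0.001, for 99.2% of matched listed transcripts in each library, which gave the library totals. Genes averaging 5 RPKM or more were kept. Single log2 ratios of RPKM + 1 were centred on the median gene, and for summed levels nothing was added to the RPKM. Intervals at 95% are Clopper-Pearson for ratios of reads, Poisson for levels and normal approximations for sums and differences of ratios, so a value with 1 RPKM added can lie off the middle of its interval. They cover counting error only. The median tested gene had 40, 23, 91 and 108 reads in the mutant with and without erythromycin and in wild type with and without it.

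Effects over both arms were fitted with limma 3.58.1 in R 4.3.3 (additive model, variance trend, Benjamini-Hochberg over 9612 genes), with libraries centred on their median difference from wild type without the drug. The model was also run on simulated reads that held counting error only. They lacked other variation between libraries, so that run does not test the model's error estimate for these data. Nothing says whether libraries came from separate cultures. Members, lists and the naming rule (all members, list genes of at least 20 RPKM, the 5 genes nearest to TUBB) were chosen with earlier results of these data known. Alternatives changed the pseudocount, filter, centring, depth, members summed and model.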

Additional observations from a re-analysis of the deposited data

Results flagged for a closer look

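The erythromycin response pointed in opposite directions in the RPL4 mutant and in wild type for 8 of the 53 members and list genes searched, with 1 library per group, so the difference was not tested. All 8 were lower with the drug in the mutant and higher in wild type, with both counting intervals off 0. Over all genes tested 1.76% met the same criterion in that direction, and 6.22% of those of at least 100 RPKM did. The log2 response in the mutant minus that in wild type was −0.52 for CCT3, −0.73 for CCT4, −0.37 for CCT5 and −0.58 for CCT8, which are chaperonin subunits. It was −0.96 for MAPRE1 and −0.90 for CKAP5, which bind growing microtubule ends. The HEK293 markers VIM and KRT18, which encode intermediate filament proteins, were at −0.48 and −0.69. No tubulin isotype was among the 8.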

How the results depend on the processing

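The summed tubulin ratio stayed below 0 in all 4 single comparisons under every alternative run. Thinning reads to 1 depth gave −0.43 for the mutant over wild type without the drug and −0.22 for erythromycin in wild type. Alpha-tubulins alone gave −0.30 for erythromycin in the mutant, −0.55 for the mutant without the drug and −0.10 for the difference of responses, whose interval (−0.28 to 0.08) held 0. For the mutant over wild type with and without the drug, scaling to a common RPKM sum gave −0.56 with and −0.29 without it, centring on genes of at least 100 RPKM gave −0.51 with and −0.24 without it, and leaving out TUBB gave −0.59 with and −0.29 without it. With the drug it was −0.76 with a mean of at least 1 RPKM, −0.59 with at least 20 RPKM and −0.64 with no centring.

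For the mutant, limma passed 0 members, but 1 (TUBB) with a pseudocount of 0.1 RPKM, 1 with a mean of at least 1 RPKM, 1 with no centring, 1 with library offsets from each gene's mean (chosen after seeing the data) and 2 (TUBA1B, TUBB) with no filter; the cause was not tested. For erythromycin it passed 0 under every alternative. Over all genes, limma passed 12 for erythromycin, against 31 (pseudocount 0.1), 149 (no filter), 62 (at least 1 RPKM), 40 (at least 20 RPKM), 26 (no centring), 19 (100 RPKM centring), 24 (gene-mean offsets) and 0 with thinned reads, no variance trend or no term for genotype. For the mutant it passed 123, against 209, 441, 290, 167, 194, 223 and 187 under the first 7 of these, 0 with thinned reads, 65 with no variance trend and 54 with no term for the drug. Depth limits TUBB3, TUBB4A, TUBA1A, TUBB2A and TUBB2B, with under 50 reads in at least 1 mutant library. No paired analysis was possible because each group had 1 library and the labels link no libraries.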
